A study of Mus musculus with 9 samples.

Results

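The ligands of the T cell receptor PD-1 and the main costimulatory molecules of macrophages were followed in tumour-associated macrophages. The 5 genes are Cd274 (PD-L1), Pdcd1lg2 (PD-L2), Cd80 (B7-1), Cd86 (B7-2) and Cd40. They were chosen by name, and all 5 were found among the 18042 gene symbols of the deposited table. All 5 also passed the filter on low counts, which left 13090 genes, and no count of theirs was fractional, the mark of reads shared with other sequences.

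Flow sorting took CD11b+ F4/80+ cells out of MC38 tumours. MC38 is a colon carcinoma line of mouse origin, here implanted under the skin of female C57BL/6 mice of WT genotype that were 6 to 8 weeks old. On day 9 the mice were assigned to injections into the tumour of solvent (Control, PBS in the labels), OMVs or IN@OMVs, the vesicles at 12.5 µg of vesicle protein per mouse. OMVs commonly stands for the outer membrane vesicles of bacteria, and neither abbreviation is spelled out in the labels. Every group holds 3 libraries, labelled as biological replicates. The labels do not tell whether a library is 1 mouse or a pool, how often the tumours were injected or when they were taken.

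PD-L1 and PD-L2 are B7 family proteins that bind PD-1 on T cells and restrain them. CD80 and CD86 bind CD28, which costimulates T cells, and CTLA-4, which competes for them. CD80 can also pair with PD-L1 on the same cell. CD40 is a TNF receptor family member on macrophages, dendritic cells and B cells that is triggered by CD40 ligand from T cells and signals through TRAF adaptors to NF-kB. In macrophages, interferon-gamma acting through IRF1 is a known inducer of PD-L1 and CD40, and interleukin-4 acting through STAT6 is a known inducer of PD-L2.

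Totals lay between 16813230 and 17288322 expected counts per library. Macrophage markers summed to 11340 to 17207 CPM (counts per 1000000 counts of a library, after scaling by TMM factors), and 0 of 10 passed the edgeR threshold in any comparison. At an unadjusted p under 0.05 there were 0, 4 and 2 (OMVs against Control, IN@OMVs against Control, IN@OMVs against OMVs). DESeq2 called 0, 1 and 1, and limma-voom 0, 1 and 0. Itgam, which encodes the sort marker CD11b, was at 1753, 1663 and 1241 CPM in Control, OMVs and IN@OMVs. Its log2 fold change in IN@OMVs was -0.50 against Control (edgeR adjusted p = 0.0512) and -0.42 against OMVs (edgeR adjusted p = 0.147). C1qb (0.42), C1qc (0.49) and Fcgr1 (0.36) went the other way in IN@OMVs against Control without passing. These genes were named after their values were seen. Some libraries stood apart within their group. T cell markers summed to 187 to 217 CPM in library 1 of every group and to 39.1 to 89.0 CPM in the other 6 libraries. Fibroblast markers summed to 1432 CPM in IN@OMVs 1 and to 3306 to 5598 CPM elsewhere. Neutrophil markers summed to 998 to 1430 CPM in Control, 745 to 981 CPM in OMVs and 225 to 277 CPM in IN@OMVs, where 8 of 8 were lower than in either other group. Monocyte markers summed to 1653 to 2059, 1184 to 1343 and 994 to 1198 CPM in the same order. In such bulk samples fewer cells of a type and less RNA per cell cannot be told apart.

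Cd274 and Pdcd1lg2 are neighbours on mouse chromosome 19, with RefSeq start sites 43.5 kb apart (build GRCm38.p6). The sequence before each start site is shown because both genes were called higher in IN@OMVs than in Control, for Cd274 without the replicate number as a block. The stretch for Cd274 lies at chr19:29367309-29367437 and the one for Pdcd1lg2 at chr19:29410669-29410918, both on the + strand. The first 121 of the 250 bases before Cd274 are left out here because part of them is annotated as untranslated sequence of Plgrkt. Capitals mark a match to the interferon regulatory factor core AANNGAAA, read on the opposite strand.
Cd274: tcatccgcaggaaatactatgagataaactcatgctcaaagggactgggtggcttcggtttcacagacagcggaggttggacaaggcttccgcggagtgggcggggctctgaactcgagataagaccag
Pdcd1lg2: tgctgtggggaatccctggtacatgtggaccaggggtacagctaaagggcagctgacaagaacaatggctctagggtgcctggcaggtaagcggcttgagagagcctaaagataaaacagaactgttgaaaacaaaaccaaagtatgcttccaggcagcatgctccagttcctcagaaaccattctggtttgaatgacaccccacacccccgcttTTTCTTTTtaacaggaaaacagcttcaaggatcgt
The 250 bases before each start site were searched on both strands. The match TTTCTTTT began at position -35 from the Pdcd1lg2 start site. In Cd274 the 1 match, TTTCGTTT, began at position -175, in the bases left out. Cd80 was the other member in the promoter table, and its window had no match. This short core occurs in 21.3% of 32851 RefSeq promoters of the same length. Another 3 motifs had no match in the 3 windows. They were the interferon-stimulated response element core, which is GAAA, any 2 bases and GAAA (2.98% of promoters), the gamma-activated sequence TTCNNNGAA (7.02%), and a kappa-B-like motif, which is GGG, any 2 bases and TTTCC (1.41%). The first of these contains AANNGAAA. Only these exact forms were searched. Near its start the Pdcd1lg2 sequence holds ggggaatccc, a kappa-B form that the searched one does not cover. Further on it holds ttcctcagaa, with a wider gap between ttc and gaa than in TTCNNNGAA, a spacing that was not searched. None of the searched motifs is named for STAT6, so STAT6 forms were not looked for in the windows. A match is a description of letters and not a binding site.

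Pdcd1lg2 had the largest fold change of the 5 genes against Control in both treatments and separated all 3 groups. Its level was 11.3, 8.54 and 7.49 CPM in Control 1, 2 and 3. In OMVs 1, 2 and 3 it was 16.1, 20.3 and 19.7 CPM. In IN@OMVs 1, 2 and 3 it was 35.1, 32.7 and 41.3 CPM. No library of one group reached the range of another, so the order was Control, OMVs, IN@OMVs. The log2 fold change was 1.04 ± 0.17 (SE) for OMVs against Control (edgeR adjusted p = 0.04), or 2.05-fold. It was 2.00 ± 0.16 for IN@OMVs against Control (edgeR adjusted p = 0.000234), or 3.99-fold. Between the treatments, IN@OMVs against OMVs, it was 0.96 ± 0.16 (edgeR adjusted p = 0.0135), or 1.94-fold.

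The 3 calls were not equally firm. The call for IN@OMVs against Control held in all 16 alternative fits, with log2 fold changes from 1.87 to 2.20. For OMVs against Control it ended with the replicate number as a block (adjusted p = 0.127), in limma-voom (0.0633) and without any single library except IN@OMVs 1 (adjusted p = 0.0538 to 0.26 without each of the other 8). The call between the treatments ended without OMVs 1 (0.0619) or IN@OMVs 3 (0.0617). The direction was the same in each of these fits.

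Cd274 was higher in both treatments and did not rank them as Pdcd1lg2 did. It stood at 154, 140 and 136 CPM in Control 1, 2 and 3. In OMVs 1, 2 and 3 it stood at 198, 242 and 259 CPM, and in IN@OMVs 1, 2 and 3 at 227, 173 and 215 CPM. Every treated library lay above every Control library, and the treated groups overlapped. Against Control the log2 fold change was 0.52 ± 0.12 for IN@OMVs (edgeR adjusted p = 0.0412, 1.43-fold). For OMVs it was 0.70 ± 0.12 without passing (edgeR adjusted p = 0.0615, 1.63-fold). Between IN@OMVs and OMVs the difference was -0.18 with a 95% interval of -0.46 to 0.09 (edgeR adjusted p = 0.579).

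Both Cd274 values against Control lay close to the threshold. With the block the IN@OMVs call ended (adjusted p = 0.0805), as it did with 2 groups in the fit (0.057) and without Control 1 (0.0822), Control 2 (0.152), Control 3 (0.165), OMVs 2 (0.0717) or IN@OMVs 3 (0.125). The OMVs value passed in DESeq2 (4.92e-05), with no filter (0.0497), with 2 groups in the fit (0.0198), without OMVs 1 (0.0395), without IN@OMVs 1 (0.0113) and without library 1 of all groups (0.000698). Without library 1 of all groups Cd274 was also lower in IN@OMVs than in OMVs (-0.37, adjusted p = 0.0352).

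Cd40 was higher in IN@OMVs than in Control. Its level was 27.7, 24.9 and 24.8 CPM in Control 1, 2 and 3. In OMVs 1, 2 and 3 it was 32.2, 31.5 and 40.7 CPM, and in IN@OMVs 1, 2 and 3 it was 66.4, 42.9 and 46.0 CPM. The 3 groups did not overlap, although OMVs 3 and IN@OMVs 2 lay close together. The log2 fold change of IN@OMVs against Control was 1.01 ± 0.17 (edgeR adjusted p = 0.00856, 2.01-fold), and 0.98 without Control 3, where it did not pass (0.0529). The value for OMVs was 0.43 ± 0.17 (edgeR adjusted p = 0.502), and between the treatments it was 0.57 ± 0.17 (edgeR adjusted p = 0.135); neither passed. DESeq2 called the latter (adjusted p = 0.0433), and without library 1 of all groups OMVs passed against Control (0.54, adjusted p = 0.0356).

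IN@OMVs 1 carried the highest Cd40 and Cd86 of all libraries, together with the highest macrophage marker sum (17207 CPM) and the lowest fibroblast marker sum (1432 CPM). Without that library the log2 fold change of Cd40 against Control was 0.78 and was still called (edgeR adjusted p = 0.00117).

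Cd86 gave no call. Its level was 111, 101 and 105 CPM in Control 1, 2 and 3, 99.0, 114 and 137 CPM in OMVs 1, 2 and 3, and 157, 115 and 120 CPM in IN@OMVs 1, 2 and 3. The IN@OMVs libraries lay above the Control libraries, and the OMVs libraries overlapped both. In IN@OMVs against Control the log2 fold change was 0.31, with a 95% interval of -0.01 to 0.62 (edgeR adjusted p = 0.272). For OMVs it was 0.14, with an interval of -0.17 to 0.46 (edgeR adjusted p = 0.912). Between the treatments it was 0.16, from -0.15 to 0.48 (edgeR adjusted p = 0.686).

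Cd80 gave no call either, and all groups overlapped. It stood at 41.7, 34.4 and 35.0 CPM in Control 1, 2 and 3, at 34.3, 39.1 and 45.1 CPM in OMVs 1, 2 and 3, and at 36.3, 28.5 and 34.5 CPM in IN@OMVs 1, 2 and 3. Against Control the log2 fold change was 0.09 for OMVs (95% interval -0.20 to 0.38, edgeR adjusted p = 0.964) and -0.16 for IN@OMVs (-0.45 to 0.13, edgeR adjusted p = 0.556). Between the treatments it was -0.25 (-0.54 to 0.04, edgeR adjusted p = 0.425), and it passed without library 1 of all groups (-0.42, adjusted p = 0.036). These intervals leave out a 2-fold change of Cd80 in either direction in each comparison.

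**Figure D1:**
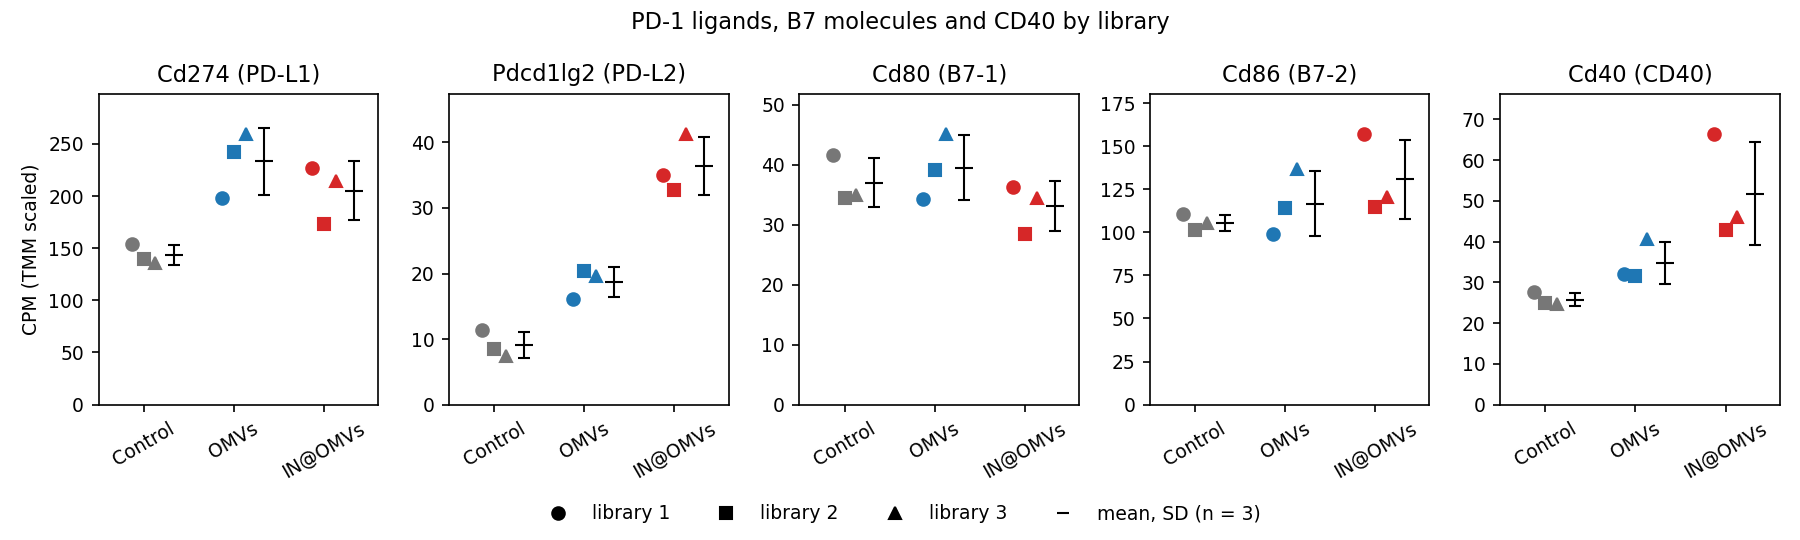
Level of each gene in CPM (y axis, from 0) by group (x axis), with 1 marker per library (circle, square and triangle for libraries 1, 2 and 3) and a bar for the mean and SD of 3 libraries. Pdcd1lg2 and Cd40 separate the 3 groups, Cd274 separates both treatments from Control, and Cd80 overlaps throughout.

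Of the 5 genes, 1 was called higher in OMVs than in Control and none lower, where 0.42% of all genes tested were called, 0.298% higher and 0.122% lower. In IN@OMVs against Control 3 of 5 were called higher and none lower, where 6.55% of all genes were called, 3.32% higher and 3.24% lower. In IN@OMVs against OMVs 1 of 5 was called higher and none lower, where 2.85% were called, 1.1% higher and 1.75% lower. The libraries of the first group all lay above those of the second for 3, 4 and 2 of the 5 genes in these comparisons, as they did for 9.89%, 13.3% and 8.86% of all genes. They all lay below for 0 of the 5, and for 9.89%, 12.5% and 8.72% of all genes. The median log2 fold change of the 5 was 0.43, 0.52 and 0.16, and that of all genes tested was -0.000488, -0.00241 and -0.00348. Both comparisons with Control use the same 3 Control libraries. These counts are from the fit without the replicate number. With it as a block, the OMVs call of Pdcd1lg2 and the IN@OMVs call of Cd274 against Control ended.

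**Figure D2:**
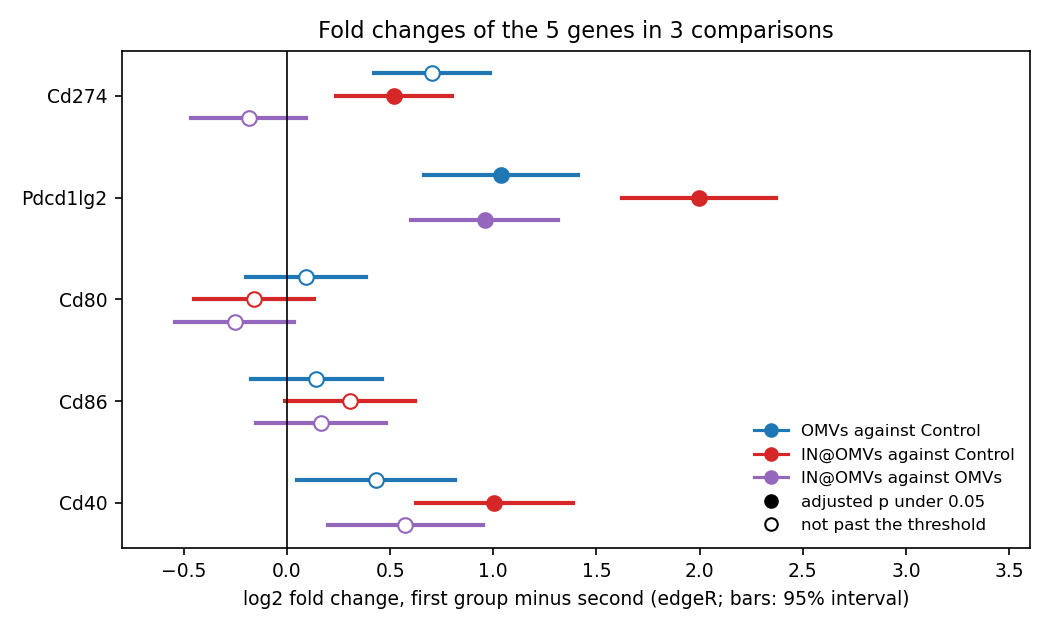
Log2 fold change (x axis, first group minus second) of each gene in the 3 comparisons, with 95% intervals from the edgeR fit; filled circles have an adjusted p under 0.05. Pdcd1lg2 is filled in all 3 comparisons, and Cd274 and Cd40 are filled for IN@OMVs against Control. The fit leaves out the replicate number.

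Ratios of counts within a library do not depend on how libraries are scaled, and were used to follow the balance between pairs of these genes. The ratio of Pdcd1lg2 to Cd274 was 0.0736, 0.061 and 0.055 in Control 1, 2 and 3. In OMVs 1, 2 and 3 it was 0.0817, 0.084 and 0.0758, and in IN@OMVs 1, 2 and 3 it was 0.154, 0.189 and 0.192. The mean log2 ratio in IN@OMVs was 1.14 above OMVs and 1.50 above Control, and OMVs stood 0.36 above Control. The groups did not overlap in any of the 3 comparisons. Counts are not corrected for transcript length, so the ratio gives a change in balance and not which transcript is more abundant.

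The ratio of Cd274 to Cd80 was 3.69, 4.06 and 3.89 in Control 1, 2 and 3, 5.76, 6.20 and 5.75 in OMVs 1, 2 and 3, and 6.26, 6.08 and 6.22 in IN@OMVs 1, 2 and 3. The mean log2 ratio was 0.61 above Control in OMVs and 0.67 above it in IN@OMVs, with no overlap, and the treatments differed by 0.07 with overlapping values. The SD of this log2 ratio was 0.02 in IN@OMVs and 0.07 in Control.

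The ratio of Cd86 to Cd80 was 2.65, 2.94 and 3.01 in Control 1, 2 and 3 and 2.89, 2.92 and 3.03 in OMVs 1, 2 and 3. In IN@OMVs 1, 2 and 3 it was 4.32, 4.02 and 3.49, above every library of the other groups. The mean log2 ratio in IN@OMVs was 0.46 above Control and 0.42 above OMVs, and OMVs and Control differed by 0.04, a difference that turned to -0.0143 without Control 1. Neither gene was called by itself in any of the 3 comparisons. A two-sided exact permutation test of 3 against 3 libraries cannot go below p = 0.1. That value was reached in 7 of the 9 comparisons of ratios (adjusted p = 0.129 over the 9), so none can pass 0.05. The other 2 gave p = 0.2 (Cd274 to Cd80 between the treatments) and p = 0.7 (Cd86 to Cd80 between OMVs and Control) in the same exact test.

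**Figure D3:**
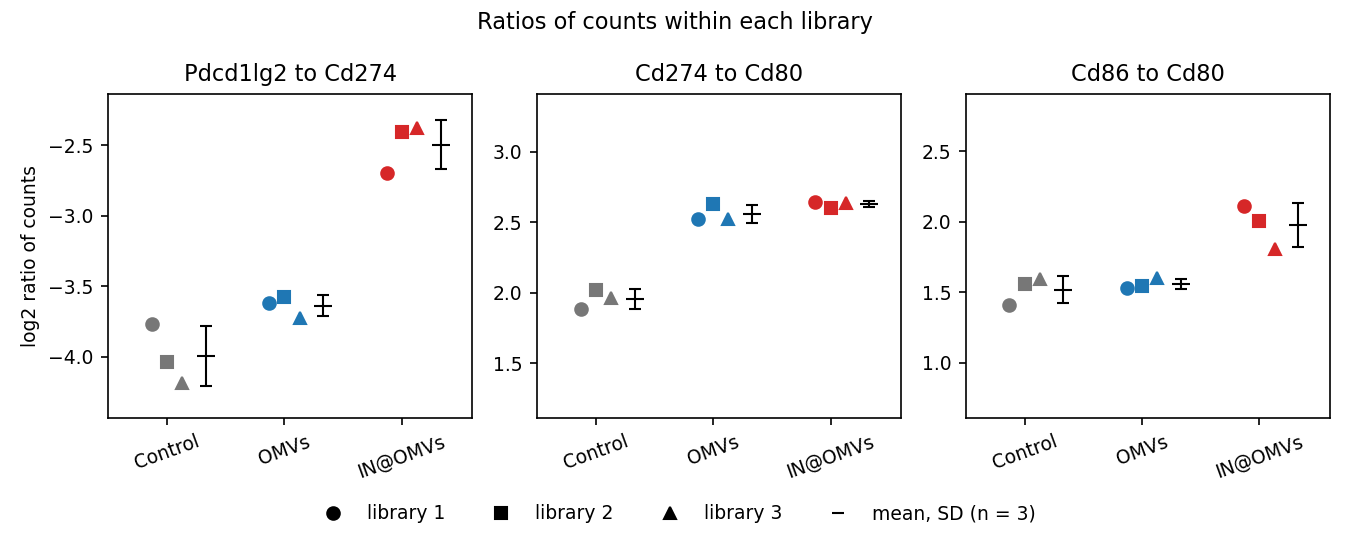
Log2 ratio of counts (y axis; each panel spans the same range) for 3 pairs of genes, with 1 marker per library and a bar for the mean and SD of 3 libraries. Pdcd1lg2 to Cd274 and Cd86 to Cd80 are highest in IN@OMVs, and Cd274 to Cd80 overlaps between the treatments, both above Control.

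Upstream of PD-L1, Irf1 and Socs1 of the interferon-gamma list rose in all 3 comparisons. Of 12 listed genes, 2 rose in OMVs against Control (list median 0.11), 4 in IN@OMVs against Control (0.10) and 2 in IN@OMVs against OMVs (-0.02), and none fell. Irf1, a transcription factor that acts on Cd274, was 171, 146 and 156 CPM in Control 1, 2 and 3, 217, 230 and 224 CPM in OMVs, and 321, 275 and 303 CPM in IN@OMVs. Its log2 fold change was 0.51 ± 0.08 for OMVs (edgeR adjusted p = 0.0375) and 0.93 ± 0.08 for IN@OMVs (edgeR adjusted p = 0.000234) against Control. It was 0.42 ± 0.08 between them (edgeR adjusted p = 0.0212). The groups did not overlap, in the order seen for Pdcd1lg2 and Cd40.

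Socs1, which feeds back on interferon signalling, was 11.4, 11.2 and 10.2 CPM in Control 1, 2 and 3, 17.7, 19.2 and 18.6 CPM in OMVs, and 36.2, 32.8 and 27.6 CPM in IN@OMVs. Its log2 fold changes were 0.76 ± 0.11 and 1.56 ± 0.11 against Control and 0.80 ± 0.10 between the treatments (edgeR adjusted p = 0.032, 0.0001 and 0.00456). Irf2, a relative of Irf1, rose in IN@OMVs against Control (0.35 ± 0.07, edgeR adjusted p = 0.0168), and this call ended without any 1 Control library (0.0628, 0.0649 and 0.0927 without Control 1, 2 and 3). With the block, Irf1 (0.0698) and Socs1 (0.0603) were not called for OMVs against Control, nor was Socs1 in limma-voom (0.0639). These calls also ended without any single library other than IN@OMVs 1 or 2 for Irf1 (0.0613 to 0.236) and other than IN@OMVs 1 for Socs1 (0.052 to 0.196). Between the treatments, Irf1 was not called without Control 3, OMVs 1, 2 or 3, or IN@OMVs 3 (0.0547 to 0.0954).

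Jak2 and Cmtm6, a kinase of the interferon-gamma receptor and a protein that keeps PD-L1 at the cell surface, gave no call. Their log2 fold changes in IN@OMVs against Control were -0.14 ± 0.10 and 0.08 ± 0.12. Of the genes that flank Cd274 and Pdcd1lg2 on chromosome 19, 5 of 6 were tested, and edgeR called 0 in each comparison (1, 1 and 2 at an unadjusted p under 0.05; 0, 1 and 0 by DESeq2; 0 in each by limma-voom). Their log2 fold changes in IN@OMVs against Control lay between -0.30 and 0.36.

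The genes listed for the interleukin-4 arm gave no call by edgeR or limma-voom in any comparison, over 6 of 6 tested. They encode receptor chains, a kinase and transcription factors, and their transcript levels do not tell how active the arm was. At an unadjusted p under 0.05 there were 0, 1 and 1, and DESeq2 called 0, 1 and 1. The receptor chain gene Il4ra stood at 566 CPM in OMVs, 532 CPM in Control and 398 CPM in IN@OMVs. Its log2 fold change was -0.42 ± 0.13 for IN@OMVs against Control (edgeR adjusted p = 0.0978) and -0.51 ± 0.13 against OMVs (edgeR adjusted p = 0.0805). Stat6 was at 254, 254 and 239 CPM in Control, OMVs and IN@OMVs. These 2 genes, Jak2 and Cmtm6 were named after their values were seen.

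On the CD40 signalling list, Nfkbia and Tnfaip3, which feed back on NF-kB, fell in IN@OMVs, where Cd40 itself was highest. The part of CD40 in the levels of the listed genes was not tested. Of 14 tested genes, none passed in OMVs against Control by edgeR (6 at an unadjusted p under 0.05, 0 by DESeq2 and by limma-voom; list median 0.14). In IN@OMVs 2 fell against Control (median -0.08) and 4 against OMVs (median -0.14), and none rose. Nfkbia, which encodes the NF-kB inhibitor IkB-alpha, was 224, 187 and 178 CPM in Control 1, 2 and 3, 231, 229 and 231 CPM in OMVs, and 156, 141 and 146 CPM in IN@OMVs. Every IN@OMVs library was below every other library. Its log2 fold change in IN@OMVs was -0.41 ± 0.08 against Control (edgeR adjusted p = 0.0232) and -0.64 ± 0.08 against OMVs (edgeR adjusted p = 0.00497).

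Tnfaip3, the A20 deubiquitinase that limits NF-kB, was 207, 159 and 150 CPM in Control 1, 2 and 3, 195, 181 and 196 CPM in OMVs, and 125, 87.4 and 99.7 CPM in IN@OMVs. It fell in IN@OMVs by 0.73 ± 0.15 on the log2 scale against Control (edgeR adjusted p = 0.0214) and by 0.88 ± 0.15 against OMVs (edgeR adjusted p = 0.016). The adaptor gene Traf1 (-0.49 ± 0.09, edgeR adjusted p = 0.0224) and the NF-kB subunit gene Nfkb2 (-0.36 ± 0.07, edgeR adjusted p = 0.0399) were lower in IN@OMVs than in OMVs. Expected counts of Nfkb2 were fractional in all 9 libraries.

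Several of these calls rested on single libraries. Against Control, Tnfaip3 was not called without Control 1 or 2 or IN@OMVs 2 or 3 (0.0539 to 0.083), nor Nfkbia without Control 2 or IN@OMVs 2 or 3 (0.0597 to 0.0826). With 2 groups in the fit, neither passed (0.0727 and 0.0781). Against OMVs, the Nfkbia call held in every alternative fit, Tnfaip3 was not called without OMVs 1, 2 or 3 or IN@OMVs 3 (0.053 to 0.0776), and Traf1 not without OMVs 1, 2 or 3 or IN@OMVs 2 or 3 (0.0726 to 0.0953). Nfkb2 kept its call on leaving out IN@OMVs 1 or 2 but no other library (0.0507 to 0.162), and lost it with 2 groups in the fit (0.13). Neutrophil and monocyte markers were lower in the same libraries; their part in these results was not tested.

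The list of B7 and related ligands also holds genes outside the B7 family, Ceacam1 among them. Of its 11 tested genes, 0 passed in OMVs against Control by edgeR (4 at an unadjusted p under 0.05, 0 by DESeq2 and by limma-voom). In IN@OMVs 1 fell and none rose. This was Ceacam1, an adhesion molecule and inhibitory ligand, at 42.4, 38.5 and 33.1 CPM in Control 1, 2 and 3, 31.6, 24.4 and 27.8 CPM in OMVs, and 13.5, 16.1 and 17.4 CPM in IN@OMVs. Its log2 fold change in IN@OMVs was -1.28 ± 0.14 against Control (edgeR adjusted p = 0.000818) and -0.83 ± 0.14 against OMVs (edgeR adjusted p = 0.0135). The call against OMVs ended without OMVs 1 (0.0532) or OMVs 3 (0.0505). Counts of Ceacam1 were fractional in 5 libraries. The neutrophil marker sums had the same order of groups, and the part of neutrophils in the Ceacam1 level was not tested. Of 8 TNF family costimulatory ligands 5 were tested, and edgeR and limma-voom called 0 in each comparison (3, 3 and 4 at an unadjusted p under 0.05; 1 in each by DESeq2).

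The list of receptors and partners on T cells also holds genes that other cells express. Pdcd1, which encodes PD-1 and was named after its values were seen, was 25.7, 21.1 and 22.5 CPM in library 1 of Control, OMVs and IN@OMVs. In the other 6 libraries it lay between 3.38 and 9.84 CPM, so it was highest in the libraries with the highest T cell marker sums. Cd40lg, which encodes CD40 ligand, was too low to test, from 0 CPM in Control 2 to 0.689 CPM in OMVs 1. It was also named after its values were seen. Of 14 tested genes on this list, edgeR called 0 in either comparison with Control (1 in each at an unadjusted p under 0.05; 1 and 0 by DESeq2; 0 by limma-voom). Tnfrsf9, the costimulatory receptor 4-1BB, was the 1 gene that passed between the treatments. It was 78.0, 59.8 and 64.1 CPM in Control 1, 2 and 3, 93.6, 120 and 125 CPM in OMVs, and 64.0, 56.5 and 58.6 CPM in IN@OMVs. Like Pdcd1 it was highest in library 1 within Control and within IN@OMVs, but unlike Pdcd1 it was lowest in library 1 within OMVs. It was lower in IN@OMVs than in OMVs (-0.92 ± 0.13, edgeR adjusted p = 0.00604), a call that held in every alternative fit. Its value for OMVs against Control was 0.75 ± 0.13 (edgeR adjusted p = 0.056; called by DESeq2, 4.6e-05).

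**Figure D4:**
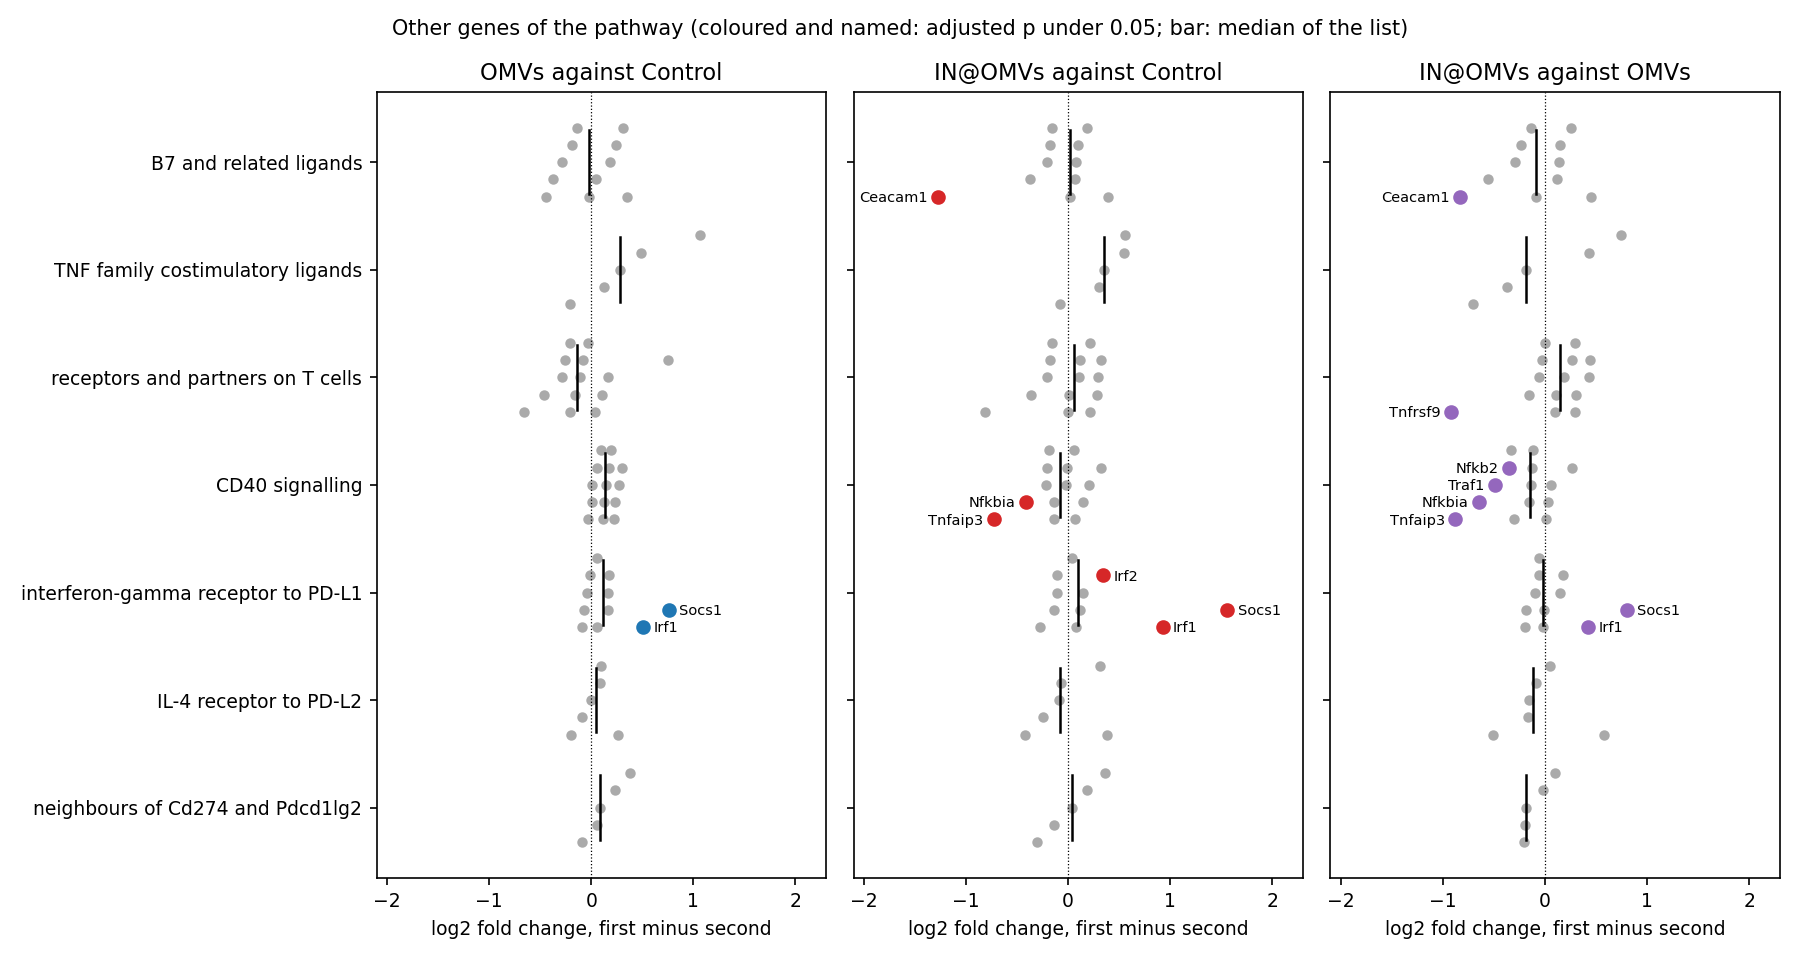
Log2 fold change (x axis, first group minus second) of the tested genes of 7 pathway lists (rows) in the 3 comparisons; coloured and named points have an adjusted p under 0.05, grey points do not, vertical bars are list medians, and 1 gene of the interferon-gamma list is not drawn. In the last comparison the called genes of CD40 signalling lie below 0 and those of the interferon-gamma list above 0.

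Dendritic cells also carry these molecules. Of 8 conventional dendritic cell markers, 2 rose in IN@OMVs against Control. They were Clec9a (3.74 against 1.50 CPM) and Batf3 (4.58 against 1.81 CPM). Batf3 was also higher than in OMVs (edgeR adjusted p = 0.0476), and limma-voom called 0 of 8 there. The other markers did not pass in IN@OMVs against Control, where the list median was 0.29. Higher values were those of Xcr1 (2.37 against 1.19 CPM, log2 fold change 0.99, edgeR adjusted p = 0.194), Cd209a (0.31) and Dpp4 (0.27). Lower values were those of Flt3 (2.87 against 4.96 CPM, log2 fold change -0.79, edgeR adjusted p = 0.218), Itgae (3.38 against 4.56 CPM, -0.43) and Zbtb46 (-0.05). All of these were named after their values were seen. The summed level of the list was 26.9 to 42.6 CPM in Control, 25.5 to 33.3 CPM in OMVs and 30.5 to 45.1 CPM in IN@OMVs. Of 7 tested markers of mature dendritic cells none passed against Control by edgeR (1 in each comparison at an unadjusted p under 0.05; 1 and 0 by DESeq2; 0 by limma-voom), and Ccl22 was higher in IN@OMVs than in OMVs (32.0 against 18.4 CPM). Their sum was 143 to 174, 139 to 153 and 146 to 174 CPM in Control, OMVs and IN@OMVs. The maturation marker Lamp3 was too low to test, at 0.0586 CPM on average in Control, about 1 count per library, and at 0 in the treated libraries. The part of dendritic cells in the Pdcd1lg2 and Cd40 levels was not tested.

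For each of the 5 genes, the 5 named genes with the most similar profile were taken from 10542 genes with a mean of at least 5 CPM. Likeness was the root mean square difference of centred log2 CPM over the 9 libraries, where 0 would be an identical profile. This choice fixes that the genes share a member's pattern, so their directions below are descriptions and no support for it. For Pdcd1lg2 these were the integrin gene Itga8 (0.21), the immunity-related GTPase genes Iigp1 (0.22) and Tgtp2 (0.24), the nuclease gene Dnase1l3 (0.23) and the guanylate-binding protein gene Gbp4 (0.24). All 5 rose in IN@OMVs against both Control and OMVs, with log2 fold changes against Control from 1.48 for Gbp4 to 2.09 for Itga8. For Cd274 they were the chemokine gene Ccl2 (0.13), Inpp5j (0.13), Hilpda (0.14), Fcrlb (0.15) and Abtb2 (0.15). Like Cd274, each had a higher value in OMVs than in IN@OMVs, with differences from -0.43 for Fcrlb to -0.03 for Ccl2, and none of these passed by edgeR.

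For Cd40 the nearest were the MHC class II gene H2-Eb1 (0.06), Ifi206 (0.08), Plaat3 (0.08), H2-T24 (0.09) and the hexokinase gene Hk3 (0.09), all of which rose in IN@OMVs against Control (0.85 for Ifi206 to 0.92 for Hk3). For Cd86 they were Entpd1 (0.04), which encodes the ectonucleotidase CD39, Tspan32, Atp6v0a1, Snx8 and Trpm2 (0.05 to 0.06). For Cd80 they were Bcl2l11 (0.07), which encodes the death protein BIM, Birc3, Gnptab, Jak2 and Rb1 (0.07 to 0.08). Among the 5 genes themselves, Cd80 and Cd86 were the most alike (0.22) and Pdcd1lg2 and Cd80 the least (0.89). Cd274 lay 0.65 from its neighbour Pdcd1lg2 and 0.25 from Cd86. On this measure, genes with small changes lie close to many others.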

How the data were processed

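RNA of 9 libraries was measured by RNA-seq after TRIzol extraction and oligo-dT preparation, per the labels. The authors deposited expected counts (estimated reads per gene, not normalised): 88.8% to 89.6% of values per library were whole. Tools listed, per the submitters' processing notes, are RSEM, Bowtie2 and BWA, and builds mm9 and hg19, with no versions or roles, so no coordinates are given for counted genes. Promoters are RefSeq's (GRCm38.p6) and 3 of 5 members matched. Plgrkt's untranslated sequence is from GENCODE of the same build.

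Counts were rounded and tested with edgeR 4.0.16 (R 4.3.3): quasi-likelihood, TMM, filterByExpr, 1 mean per group over 9 libraries, Benjamini-Hochberg over 13090 genes, threshold 0.05. The SE is the size of the log2 fold change divided by the root of F. The biological coefficient of variation was 0.131. Alternatives used DESeq2 1.42.0 and limma-voom 3.58.1, RLE size factors, no filter, 2 groups, a replicate block, and omissions. The steps were tested on simulated data. The labels do not say whether libraries came from separate animals, so p-values measure the spread between these samples.

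Members and lists were chosen with earlier results of these data known. Named genes are the 5 members, up to 4 called genes per list and comparison by smallest p, and the 5 nearest profiles per member, leaving out predicted and unnamed models (Gm, Rik and LOC names). Motifs were chosen with the sequences in view. Same-numbered libraries deviated together across genes for OMVs and Control (r = 0.12 to 0.53) and for IN@OMVs and Control (0.15 to 0.45). A pairing by these numbers rests on the data alone. The main fit did not use it, and the replicate block used it as an alternative. Of 3 libraries each, 3 of OMVs but only 1 of IN@OMVs correlated best with the Control library of the same number. For IN@OMVs and OMVs r was -0.37 to 0.51, also with 1 of 3 best with its own number. No pairing was read from the numbers there, although the block was also fitted. The values of 1 gene of the interferon-gamma list are not reported here, and it is kept in that list's counts and medians.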

Additional observations from a re-analysis of the deposited data

How the results depend on the processing

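Calls of the 5 genes in OMVs against Control numbered 1 in edgeR, 2 in DESeq2, with no filter and with 2 groups in the fit, 0 in limma-voom and 0 with the replicate block (3 in edgeR at an unadjusted p under 0.05), 0 to 2 on leaving out single libraries, and 3 without library 1 of all groups. In IN@OMVs against Control they numbered 3, and 1 to 3 on leaving out single libraries. The Cd274 call among them was lost with 2 groups in the fit and with the replicate block. In IN@OMVs against OMVs calls of the 5 genes numbered 1, 2 in DESeq2, 0 to 1 on leaving out single libraries and 3 without library 1 of all groups. Of all genes, edgeR called 55 in OMVs against Control, DESeq2 190, limma-voom 36, 2 groups in the fit 115, the block 20 and the fit without library 1 of all groups 313. On leaving out single libraries this was 0 to 266. It was 0 without Control 2, Control 3, OMVs 2 or OMVs 3, with 787, 803, 734 and 942 at an unadjusted p under 0.05. Between IN@OMVs and Control 858 were called, 519 with 2 groups in the fit, 393 to 1635 on leaving out single libraries and 1475 without library 1 of all groups. Between IN@OMVs and OMVs 373 were called, 619 in DESeq2, 195 with 2 groups in the fit, 180 to 786 on leaving out single libraries and 844 without library 1 of all groups. Called pathway genes numbered 2, 7 and 8 in these comparisons. In the first they were 5 in DESeq2, 1 in limma-voom, 4 with 2 groups, 0 with the block, 0 to 7 on leaving out single libraries and 9 without library 1 of all groups. In the second they were 11 in DESeq2, 4 to 17 and 18, and in the third 3 to 17 and 24. The log2 fold change of Cd80 for OMVs against Control turned to -0.0145 without OMVs 3 (up to 0.186 on leaving out other single libraries), and that of Cd86 for IN@OMVs against OMVs to -0.0945 without library 1 of all groups; neither passed. The cause was not tested. In the comparisons with Control the block ended the calls of Pdcd1lg2, Irf1 and Socs1 for OMVs and of Cd274 for IN@OMVs, and changed no other call of a gene named from the members or lists. For IN@OMVs against OMVs the block gave 306 calls of all genes and changed no call of the 5 genes; of the calls described there it ended that of Nfkb2 (adjusted p = 0.0796), and 1 of 3 libraries correlated best with its own number. The log2 ratio of Cd86 to Cd80 for OMVs against Control, at 0.04, turned to -0.0143 without Control 1 and reached 0.0773 without Control 3; the other 8 differences of ratios kept their sign with 0.5 counts added or a library left out. With 3 libraries a group, leaving 1 out can move a group's mean only by a part of its SD, so these small moves are no sign of stability.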
